A study of Mus musculus with 272 samples.

Results

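The change of the mouse embryo transcriptome between the 2-cell and the 4-cell stage was measured in 8 RNA libraries, 4 from 2-cell and 4 from 4-cell embryos, out of 272 in the series. The rule took every library of those stages made from unfractionated RNA, and 1 of each set of gene rows with identical values was kept, which left 15771 gene symbols. Each library was polyadenylated RNA from a pool of 20 whole embryos of Mus musculus, and no treatment, genotype, strain, age or hour of collection is given for either stage. The study as a whole covers 8 stages from the germinal vesicle (GV) oocyte to the blastocyst, each with 4 such libraries and with 3 sucrose gradients of about 100 oocytes or embryos, cut into 10 fractions, which report on ribosome loading. The gradients of the 2-cell and 4-cell stages, lysed with cycloheximide to hold ribosomes on their transcripts, are used below only as further libraries of the same stages. Nothing in the labels says how many mothers or litters contributed to a pool, so p-values measure the spread between pools, and a pool of whole embryos cannot tell fewer expressing cells from less RNA per cell. The labels' protocols describe the material as coming from the same batch, so the spread between pools may be only the spread within a batch. Which libraries share that batch is not given here.

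The oocyte of the mouse stores the messenger RNAs that carry the embryo through its first division, and most transcription from the new genome begins in the 2-cell embryo. Stored transcripts are deadenylated and degraded around the same time, so the interval between 2-cell and 4-cell holds the replacement of an oocyte-made RNA population by an embryo-made one. Some genes, such as the Zscan4 cluster, are transcribed in a burst at the 2-cell stage and then silenced. Ribosome production is low in the oocyte's last phase and in the zygote, and it resumes with embryonic transcription.

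The 2-cell libraries held 11.2 to 14.9 M and the 4-cell libraries 14.1 to 19.1 M reads. A gene's level is given as CPM, its reads scaled to a library total of 1 M, with no scaling for length. Genes with at least 1 CPM numbered 12077 to 12457 in 2-cell and 11143 to 11278 in 4-cell libraries. The 10 genes with the most reads took 12.8 to 13.9% of 2-cell and 6.26 to 7.40% of 4-cell reads. 18S ribosomal RNA took 0.0409 to 0.0558% of reads at the 2-cell stage and 0.534 to 0.572% at the 4-cell stage, apart from 4-cell library B with 1.31%. The columns of the 2-cell libraries are lettered E to H where their labels have A to D, so whether they were made in another batch than the 4-cell libraries A to D cannot be told apart from the stage. Among 2-cell libraries, E stood apart, with a chi-square per degree of freedom of 46.3 to 56.3 against the other libraries, which gave 13.8 to 16.1 among themselves. The 4-cell pairs gave 41.5 to 61.8, so the libraries of every pair differed by more than sampling noise, and all 8 were kept as separate replicates. Of 22 cumulus and granulosa markers 7 were in the table and 5 of them were tested. The tested ones summed to 16.1 to 27.5 CPM in 2-cell and 29.3 to 40.6 CPM in 4-cell libraries, and Inha had 0 reads in all 8. Of 10 sperm markers 4 were in the table and 3 of them were tested. The tested ones summed to 109 to 124 and 26.3 to 40.9 CPM, nearly all of it Odf2, which fell from 104 to 31.4 CPM. Before fertilization, the same tested markers already summed to a mean of 84.5 CPM in GV and 84.1 CPM in MII oocytes. Of 14 blood, stromal and epithelial markers 2 were in the table, Hba-a1 and Pecam1, summing to 40.1 to 57.1 and 66.6 to 204 CPM. The part of these other cells in the results was not tested.

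Most reads of the 2-cell embryo came from genes that fell, and most reads of the 4-cell embryo from genes that rose. Of 14642 genes tested, 9485 were called (64.8%), 4662 higher (31.8%) and 4823 lower (32.9%) at the 4-cell stage. A gene was called when its change was at least 1 on the log2(CPM + 1) scale and the Benjamini-Hochberg adjusted p of limma's moderated test was under 0.05. The genes called lower summed to 666484 CPM in 2-cell and 75314 CPM in 4-cell embryos, and those called higher to 111799 and 701163 CPM, sums that describe genes chosen on the same libraries. Large falls were more frequent than large rises: 931 genes fell by at least 4 on the log2 scale and 437 rose by as much, and 46 fell and 1 rose by at least 8. The 4 libraries of one stage lay wholly above those of the other for 4450 of the genes called higher and 4637 of those called lower. Of the genes called lower, 605 were at 3 reads or fewer in every 4-cell library, and of those called higher, 148 in every 2-cell library. Of the 5157 genes not called, 2427 had an adjusted p under 0.05 with a change under 1. The counts came to between 9444 and 9523 genes when any 1 of the 8 libraries was left out, and to 9504 without library E. A value in CPM is a share of the reads, and the total RNA of an embryo cannot be read from it.

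**Figure D1:**
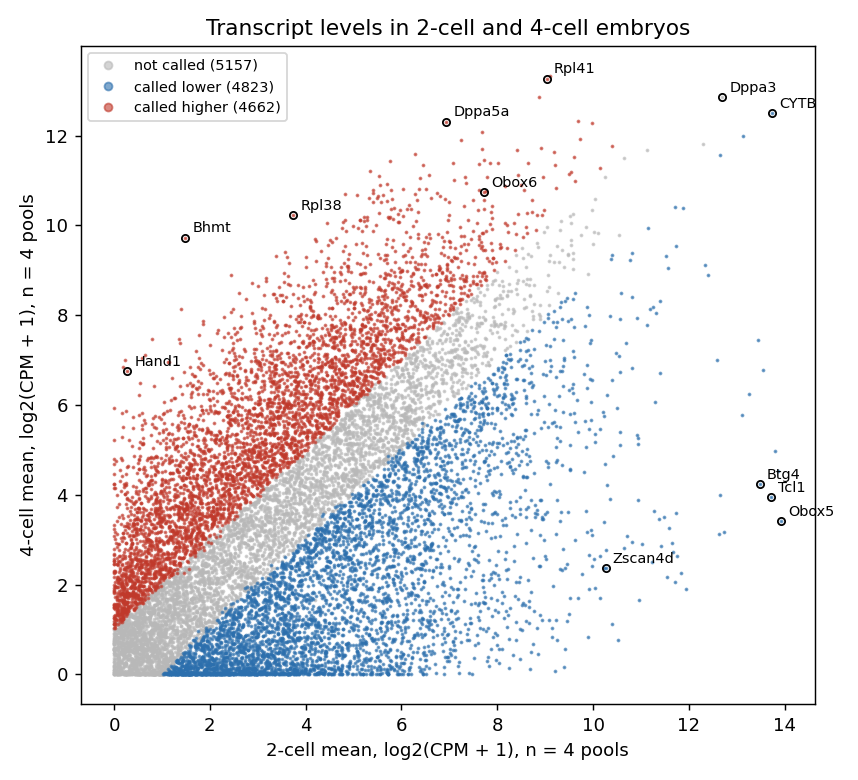
Mean level of each of the 14642 tested genes in 2-cell (horizontal) and 4-cell embryos (vertical), on the log2(CPM + 1) scale, n = 4 pools each; red points were called higher, blue lower and grey points not called. Obox5, Tcl1 and Btg4 lie at the lower right, Bhmt, Rpl38 and Dppa5a at the upper left, and Dppa3 near the diagonal.

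Genes known for a burst of expression in the 2-cell embryo were nearly all far lower at the 4-cell stage. Of 29 such genes looked for, 23 were in the table, and Dux was not. The 23 summed to 875 CPM in GV oocytes, 443 in zygotes and 4624 in 2-cell embryos, so some transcript was present before the 2-cell stage. All 23 were tested, and 20 were called lower and 0 higher. On the log2(CPM + 1) scale the median change of all genes tested was 0.017, and that of the 23 genes was -5.27. The size of that median depends on the pseudocount, with -6.77 at 0.1 and -3.87 at 5. Zscan4 genes encode SCAN-domain zinc finger proteins that mark the 2-cell stage. Zscan4d had 1059, 1187, 1572 and 1075 CPM in 2-cell libraries E to H and 8.2, 3.7, 1.5 and 3.14 CPM in 4-cell libraries A to D. All 2-cell libraries were above 1000 CPM and all 4-cell libraries under 10, so the groups lay far apart (change -8.04, SE 0.33, limma adjusted p 8.15e-22). Zscan4c fell from 354 to 1.01 CPM and Zscan4a from 382 to 1.91 CPM. Zscan4f, which fell from 126 to 0.224 CPM, and Zscan4e, which fell from 70.6 to 0.107 CPM, ended near the level of single reads. Outside that cluster, the arginase gene Arg2 fell from 118 to 2.95 CPM, the zinc finger gene Zfp352 fell from 467 to 4.34 CPM, Tcstv1 from 363 to 1.9 CPM, Pramel16 from 209.9 to 2.0 CPM and the deubiquitinase gene Usp17lc from 51.6 to 0.297 CPM. Ubtfl1, an HMG-box gene, fell less far (from 181 to 62.1 CPM). The 3 genes of the list that were not called were Tdpoz4 (31.8 and 34.2 CPM), Tdpoz2 (7.74 and 11.4 CPM) and Sp110 (98.7 and 108 CPM). Members of these clusters are near-identical in sequence, so how reads were divided among them is uncertain.

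The stretches before the start sites of Zscan4c and Zscan4d show how alike the members of the cluster are, and each carries a TATA box (TATAAA) followed by a CCAAT box (CCAAT). They are the 250 bases before the start in RefSeq's promoter table on GRCm38.p6, while the submitters' processing notes name GRCm39. Zscan4c is at chr7:11005495-11005744, plus strand, and Zscan4d at chr7:11166149-11166398, minus strand. Capitals mark letters that match a motif searched on both strands.
Zscan4c: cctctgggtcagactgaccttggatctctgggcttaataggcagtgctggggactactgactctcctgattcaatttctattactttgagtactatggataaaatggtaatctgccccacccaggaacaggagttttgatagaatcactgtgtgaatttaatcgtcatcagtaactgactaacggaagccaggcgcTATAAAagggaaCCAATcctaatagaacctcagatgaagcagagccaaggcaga
Zscan4d: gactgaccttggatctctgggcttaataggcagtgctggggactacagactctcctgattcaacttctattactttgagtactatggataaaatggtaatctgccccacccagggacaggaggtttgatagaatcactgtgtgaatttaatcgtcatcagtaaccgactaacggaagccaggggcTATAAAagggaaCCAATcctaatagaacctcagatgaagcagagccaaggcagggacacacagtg

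Other gene families of the oocyte and early embryo were nearly all called lower. The Tcl1 and Obox genes already summed to 8717 and 20378 CPM in GV oocytes. The Eif1ad and Eif4a3 copies summed to 1.09 CPM there. All 10 embryonic copies of the translation factor genes Eif1ad and Eif4a3 were called lower, with a median change of -7.37. Eif1ad7 had 1162, 1896, 1794 and 1791 CPM and then 3.3, 15.2, 7.13 and 4.1 CPM. Library E was the lowest of the 2-cell libraries, and all 4 of them lay far above every 4-cell library (change -7.80, SE 0.30, limma adjusted p 1.03e-22). Eif4a3l2 fell from 239 to 3.85 CPM. All 6 members of the Tcl1 family, which encode small activators of Akt kinases, were called lower (median -9.49). Tcl1 alone had 16846, 12668, 13219 and 10817 CPM and then 9.54, 15.8, 19.5 and 12.6 CPM. Its relatives Tcl1b1, Tcl1b2, Tcl1b3 and Tcl1b4 fell from 6305 to 7.68 CPM, from 3353 to 3.15 CPM, from 2989 to 3.47 CPM and from 1988 to 2.17 CPM. Their summed level went from between 25777 and 32475 CPM to between 22.8 and 37.6 CPM. Of 6 Obox homeobox genes, 5 fell and Obox6 rose. Obox5, the gene with the most reads in the 2-cell embryo, had 13635, 17931, 15331 and 15564 CPM and then 8.87, 11.1, 11.4 and 7.09 CPM. The stages lay far apart (change -10.54, SE 0.20, limma adjusted p 4.25e-31), and Obox1 fell from 3658 to 3.79 CPM. Obox6 had 153, 201, 272 and 221 CPM in 2-cell and 1366, 1718, 1447 and 2276 CPM in 4-cell libraries, with no overlap (change 3.0, SE 0.26, limma adjusted p 9.32e-13). Obox6 was thus the one of the 6 that rose, and Obox7, Obox2 and Obox3 fell to 1.31, 3.72 and 3.26 CPM.

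The summed level of zona pellucida and oocyte growth genes was alike from the GV oocyte to the 2-cell embryo. It was far lower at the 4-cell stage. The 23 genes of the zona pellucida and of oocyte growth summed to 35496 CPM in GV oocytes, 37315 in zygotes, 33351 in 2-cell and 494 in 4-cell embryos. Of these genes 20 were called lower and 1, Cd9, higher (median -6.20). Bmp15, an oocyte growth factor, had 2214, 2537, 2320 and 2458 CPM and then 3.92, 5.9, 2.89 and 5.97 CPM. No 4-cell library came near the 2-cell range. The related Gdf9 fell from 352 to 11.9 CPM, the zona pellucida gene Zp2 from 137 to 6.94 CPM and the oocyte homeobox gene Nobox from 119.7 to 0.635 CPM. Omt2b, an oocyte maturation gene, fell from 11886 to 109 CPM and Oosp3, an oocyte-secreted protein gene, from 1464 to 0.712 CPM. Before its fall Omt2b had risen, from 1749 CPM in GV oocytes to 7011 CPM in zygotes. The like sum of the list therefore does not hold for each of its genes. Zp3 (46.2 and 24.6 CPM) did not pass the change of 1, though it did when 4-cell library A or 2-cell library G was left out (-1.01 without G), with size factors (-1.12), in edgeR with TMM (-1.04) and in DESeq2 (-1.14). Cd9, the egg tetraspanin needed for sperm fusion, rose from 86.2 to 246 CPM. The 15 oocyte Fbxw genes, which encode F-box proteins with WD repeats, were all called lower (median -5.96). Counted in CPM, most of the drop in their sum came before the 2-cell stage. As a ratio, the drop from 2-cell to 4-cell was larger than that from GV to 2-cell. Their sum was 50132 CPM in GV oocytes, 26628 CPM in zygotes, 3894 CPM in 2-cell and 42.2 CPM in 4-cell embryos. Of 16 genes of the subcortical maternal complex and the oocyte Nlrp family, 13 were called lower and 1, Khdc3, higher (from 6.0 to 26.9 CPM). Zbed3, which belongs to that complex, had 21620, 10459, 12491 and 12464 CPM, with library E highest, and then 33.3, 55.1, 18 and 15.3 CPM. Nlrp9c fell from 3247 to 5.63 CPM, Nlrp5 from 78.8 to 9.91 CPM and Ooep from 330.4 to 10.3 CPM, while Padi6 (86.6 and 45.3 CPM) and Nlrp4c (12.1 and 12.3 CPM) were not called. Padi6, which lies just short of the change of 1, was called without 4-cell library A (-1.04) or 2-cell library H (-1.06). It was also called with quantile normalization (-1.14), with size factors (-1.16), in edgeR with TMM (-1.08) and in DESeq2 (-1.17). These 16 genes summed to 23850 CPM in 2-cell and 205 CPM in 4-cell embryos.

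The proteins that hold and degrade stored transcripts were themselves encoded by transcripts that changed. Of 20 genes for binding and storage of maternal RNA, 13 were called lower and 2 higher. Dazl, a germ-cell RNA-binding protein, fell from 987 to 8.23 CPM, Zar1 from 42.1 to 0.70 CPM, Cpeb1 from 26.8 to 2.05 CPM and the oocyte form of the cap-binding protein, Eif4e1b, from 217 to 0.952 CPM. Ythdf2, a reader of N6-methyladenosine, rose from 87.9 to 515 CPM. Of 25 deadenylation and decapping genes, 13 were called lower (52%) and 8 higher (32%), against 32.9% and 31.8% of all genes tested. Btg4, the adaptor that brings the CCR4-NOT deadenylase to maternal transcripts, had 10372, 13257, 11485 and 10379 CPM and then 9.54, 16, 22.7 and 23.2 CPM. All 4-cell libraries were far below every 2-cell library (change -9.30, SE 0.21, limma adjusted p 3.27e-29). The deadenylase genes Cnot6l and Cnot7 fell from 605 to 26.2 CPM and from 2234 to 219 CPM, and the decapping genes Dcp1a and Dcp2 from 152 to 25.4 CPM and from 305 to 23.9 CPM. The scaffold Cnot1 rose from 98.9 to 472 CPM, Cnot8 from 168 to 378 CPM and the decapping enhancer Edc3 from 0.20 to 23.6 CPM. The call of Cnot8 was lost with size factors (0.966), quantile normalization (0.846) and DESeq2 (0.944).

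**Figure D2:**
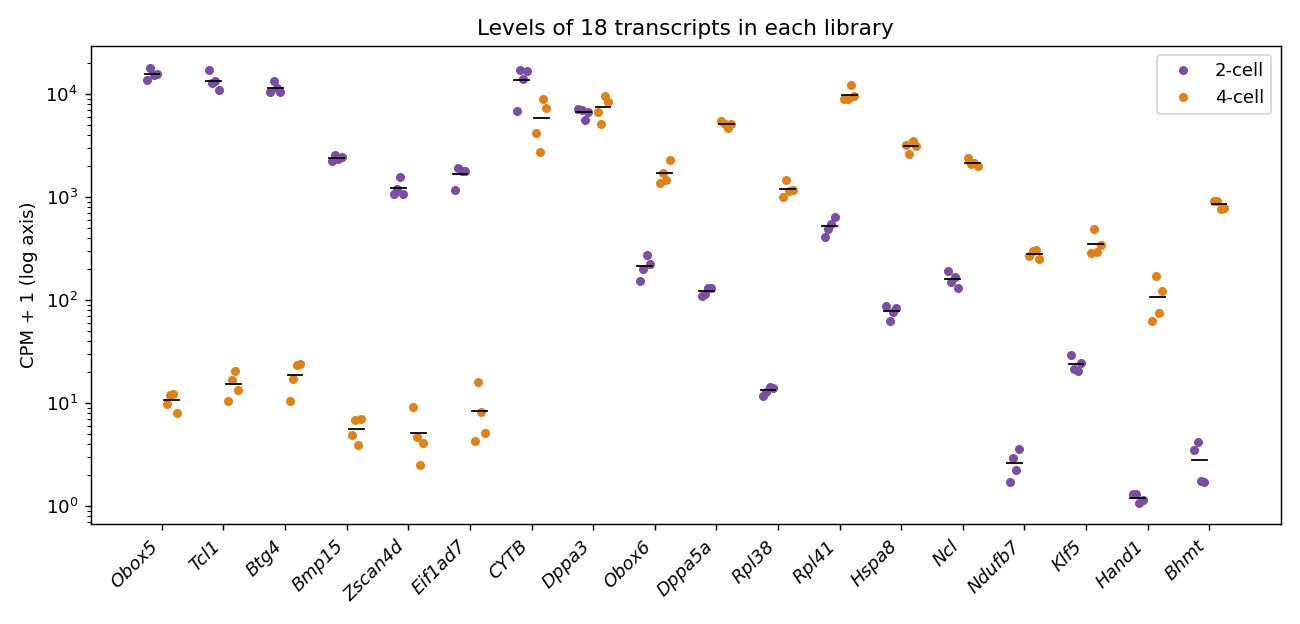
CPM + 1 on a log axis of named transcripts in each 2-cell (purple, E to H from left to right) and 4-cell library (orange, A to D); black lines are means of 4 libraries. From Obox5 to Eif1ad7 the 4-cell libraries lie below all 2-cell libraries, the stages overlap for CYTB and Dppa3, and from Obox6 to Bhmt the 4-cell libraries lie above.

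Transcripts for making ribosomes rose together. Of 89 genes matched as cytosolic ribosomal proteins, related copies included, 87 were called higher and 0 lower, with a median change of 4.59. Their sum was 5307 to 5879 CPM in 2-cell and 97867 to 103133 CPM in 4-cell libraries. Rpl38, of the large subunit, had 10.7, 11.9, 13.5 and 13.2 CPM and then 989, 1468, 1138 and 1177 CPM. This was the largest rise of the list, with tight groups that lay far apart (change 6.48, SE 0.19, limma adjusted p 4.92e-26). Rps27, of the small subunit, rose from 9.47 to 636 CPM, and Rpl41 from 521 to 9850.1 CPM, and was exceeded in reads by Map1lc3b alone among 4-cell genes. Rplp0, of the stalk, was already at 1010.2 ± 137 CPM (SD, n = 4) in 2-cell embryos and reached 4945 ± 401 CPM. The 2 members not called were Rpl3l (5.9 and 6.41 CPM) and Rps27l (741 and 1057 CPM), both variants of a ribosomal protein gene. Large- and small-subunit genes had medians of 4.55 over 54 and 4.74 over 32 genes. These genes have many processed pseudogenes, and low values such as those of Rpl24 (1.08 and 3.58 CPM) and Rps10 (0.80 and 5.29 CPM) are uncertain, because it is not given here how reads shared with copies were counted. Both lost their call at a pseudocount of 5, with changes of 0.492 and 0.823.

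The promoters of Rps27, Rpl38 and Rpl41 are shown because these genes rose together. Each sequence is again the 250 bases before the start in RefSeq's table on GRCm38.p6. Rps27 (at chr3:90213649-90213898, minus strand) holds a YY1 motif (AAGATGGCG), Rpl38 (at chr11:114668330-114668579, plus strand) and Rpl41 (at chr10:128549169-128549418, minus strand) an ETS motif (CCGGAAG) and a GC box (GGGCGG), the GC box of Rpl41 on the opposite strand. Capitals mark the matches.
Rps27: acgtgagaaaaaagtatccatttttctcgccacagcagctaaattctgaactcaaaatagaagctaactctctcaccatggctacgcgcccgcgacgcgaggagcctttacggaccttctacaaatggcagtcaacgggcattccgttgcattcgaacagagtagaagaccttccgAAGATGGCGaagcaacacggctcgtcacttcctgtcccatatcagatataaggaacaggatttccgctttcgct
Rpl38: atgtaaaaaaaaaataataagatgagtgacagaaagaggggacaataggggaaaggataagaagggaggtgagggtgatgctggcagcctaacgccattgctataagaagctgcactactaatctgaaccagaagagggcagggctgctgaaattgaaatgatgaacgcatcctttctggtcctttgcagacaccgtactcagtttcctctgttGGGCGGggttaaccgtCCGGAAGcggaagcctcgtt
Rpl41: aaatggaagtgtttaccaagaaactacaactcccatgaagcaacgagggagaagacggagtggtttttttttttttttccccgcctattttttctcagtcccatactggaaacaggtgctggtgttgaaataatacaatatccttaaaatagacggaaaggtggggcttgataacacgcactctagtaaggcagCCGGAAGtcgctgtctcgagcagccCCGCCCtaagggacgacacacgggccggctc

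The machinery that assembles and uses ribosomes moved the same way. Of 59 ribosome biogenesis genes, 57 were called higher and 0 lower (median 3.08), with Mphosph10 (159 and 214 CPM) and Dkc1 (163 and 319 CPM) not called. Dkc1 was just under the change of 1 and passed it when 4-cell library B or D or 2-cell library F or G was left out. Ncl, the nucleolar protein nucleolin, had 189.8, 149.7, 166 and 129 CPM and then 2399, 2064, 2151 and 2014 CPM. Every 4-cell library was far above every 2-cell library (change 3.77, SE 0.13, limma adjusted p 1.41e-24). Fbl, which methylates ribosomal RNA, rose from 9.6 to 195 CPM, Nolc1 from 36.1 to 1095 CPM and Polr1a, the largest subunit of RNA polymerase I, from 6.89 to 96.2 CPM. Of 54 translation initiation factor genes, leaving out the embryonic copies, 36 were called higher and 7 lower (median 1.81). Eif3c rose from 21.8 to 809.8 CPM and Eif5 from 825 to 5167 CPM, whereas Eif4e3 fell from 98.3 to 3.46 CPM. Of 14 elongation factor genes and their modifying enzymes, 11 were called higher. Eef2 rose from 37.4 to 744 CPM, while Eef2k, the kinase that inhibits it, was the one called lower (from 64.4 to 1.23 CPM). Of 22 aminoacyl-tRNA synthetase genes, 17 were called higher and 1, Farsb, lower (from 163 to 63 CPM), although Farsa, its partner subunit, rose from 9.42 to 88.1 CPM.

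Lists for protein folding, degradation, nuclear import and splicing had more genes called higher than lower. Of all genes tested 31.8% were called higher and 32.9% lower. Heat shock genes gave 53.8% and 23.1%, and importin and transport genes 55% and 15%. Proteasome genes gave 73.9% and 13.0%, and splicing factor genes 73.9% and 0%. All 8 genes of the chaperonin TRiC, which folds actin and tubulin, were called higher, with Cct4 going from 33.3 to 977 CPM. Hspa8, the constitutive Hsc70 chaperone, had 87.3, 61.7, 75.1 and 83.7 CPM and then 3159, 2587, 3521 and 3132 CPM, and Hsp90ab1 rose from 203 to 4308 CPM. The groups of Hspa8 lay far apart (change 5.32, SE 0.19, limma adjusted p 1.46e-23). The heat-inducible Hspa1b fell from 10.7 to 2.2 CPM, and so did Hspa4l (from 64 to 1.55 CPM), so of 26 heat shock genes 14 were called higher and 6 lower. Of 46 proteasome genes, 34 were called higher and 6 lower. Psmd7, of the regulatory particle, rose from 36.3 to 1165 CPM and Psmb5, a catalytic subunit, from 4.95 to 174 CPM. Psmf1, a proteasome inhibitor, fell from 315 to 72.1 CPM, and Psme4, which encodes the activator PA200, from 600.5 to 211 CPM. Of 20 importin and transport genes 11 rose and 3 fell: Kpna7, the oocyte importin, fell from 402 to 1.23 CPM, Kpna3 from 1004 to 92.8 CPM and Tnpo1 from 243 to 78.1 CPM, while Ipo5 rose from 41.1 to 945 CPM. Of 46 splicing factor genes 34 were called higher and 0 lower, among them Snrpb (from 28.9 to 653 CPM) and Srsf3 (from 234 to 1146 CPM).

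Of 94 nuclear genes of oxidative phosphorylation tested, 75 were called higher and 6 lower (median 2.30). All 9 genes of complex III and 16 of 17 of ATP synthase were among the higher ones, against 37 of 46 for complex I and its assembly factors, 11 of 17 for complex IV and 2 of 4 for complex II. Ndufb7, a subunit of complex I, had 0.706, 1.92, 1.27 and 2.58 CPM and then 265, 299, 304 and 252 CPM. The groups lay far apart (change 6.80, SE 0.18, limma adjusted p 2.87e-27). Uqcrc1 rose from 3.04 to 159 CPM and Atp5k from 4.63 to 279 CPM. Cox6b2, the testis form of a complex IV subunit, fell from 322 to 21.3 CPM. Of the 13 protein genes encoded in mitochondrial DNA, 12 were called lower and 0 higher (median -2.31). CYTB, the mitochondrial cytochrome b gene, had 6801, 16858, 14044 and 16637 CPM in 2-cell and 4161, 2734, 8879 and 7284 CPM in 4-cell libraries. Library E was far below the other 2-cell libraries and lay within the 4-cell range. As a share of all reads, mitochondrially encoded transcripts were 2.04% in library E, 4.05 to 4.72% in the other 2-cell libraries and 0.908 to 2.44% in 4-cell libraries. COX1 fell from 6444 to 3051 CPM and ND4 from 3018 to 528 CPM, and ND6 (157 and 145 CPM) was not called. Without library E the median of the 13 genes was -2.72. Without 4-cell library B, the lowest, 9 of the 13 were called lower, and CYTB and COX1 were not, with changes of -0.987 and -0.916. With quantile normalization 9 were also called lower, and CYTB and COX1 had changes of -0.466 and -0.432, neither called. Of 76 mitochondrial ribosomal protein genes, which are nuclear, 63 were called higher and 4 lower, with Mrpl52 going from 0.465 to 88.8 CPM. The gradients, described further on, did not show this fall.

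Metabolic lists differed in direction. Of all genes tested 31.8% were called higher and 32.9% lower, and of one-carbon genes 63.6% and 13.6%. Bhmt, which remethylates homocysteine with betaine, had the largest rise of all tested genes. It had 2.5, 3.22, 0.762 and 0.736 CPM and then 922, 915, 769.7 and 775 CPM, was at 0 reads in GV, MII and zygote libraries and stood at 956 CPM in 8-cell embryos. The stages lay far apart (change 8.35, SE 0.21, limma adjusted p 3.8e-28). Its neighbour in the pathway Bhmt2 rose from 2.23 to 39.1 CPM, as did Gldc, of the glycine cleavage system (from 9.39 to 332 CPM), Tyms, thymidylate synthase (from 16.4 to 312 CPM), and Mat2a, methionine adenosyltransferase (from 71 to 861 CPM). Mthfd2 and Mat2b fell from 243 to 23 CPM and from 2318 to 279 CPM, and in all 14 of 22 one-carbon genes were called higher and 3 lower. Of 23 glycolysis and lactate genes, 5 were higher (21.7%) and 10 lower (43.5%). The lactate dehydrogenase gene Ldhb fell from 1943 to 39.5 CPM and the glucose transporter gene Slc2a1 from 18.8 to 0.553 CPM, while the hexokinase gene Hk1 rose from 1.22 to 32.5 CPM and Mpc2, of the mitochondrial pyruvate carrier, from 80.6 to 890.4 CPM. Cholesterol synthesis genes numbered 5 higher (18.5%) and 8 lower (29.6%) of 27, with Insig1 going from 96.8 to 6.38 CPM. Of 25 antioxidant genes, 9 were higher (36%) and 7 lower (28%), near the shares of all genes. Among them Prdx2 fell from 2519 to 66.4 CPM, and the metallothionein gene Mt1 rose from 341 to 3303 CPM. Cad, the enzyme that opens pyrimidine synthesis, rose from 2.65 to 233 CPM.

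The Bhmt promoter is shown for the largest rise. Its window on GRCm38.p6 (at chr13:93637759-93638008, minus strand) holds a match to the nuclear receptor motif of Nr5a2 (TCAAGGTCA), found in 0.407% of the 27025 RefSeq promoters of 300 bases searched on both strands, and a CCAAT box on the opposite strand. Capitals mark the matches.
Bhmt: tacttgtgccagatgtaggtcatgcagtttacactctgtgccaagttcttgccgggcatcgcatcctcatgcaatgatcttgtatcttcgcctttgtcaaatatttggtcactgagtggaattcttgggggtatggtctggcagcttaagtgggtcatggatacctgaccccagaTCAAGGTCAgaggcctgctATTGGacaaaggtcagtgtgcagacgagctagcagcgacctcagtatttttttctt

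Lineage and pluripotency factors were more often called higher than lower, and several were already present in 2-cell embryos. Of 35 lineage and pluripotency factors, 21 were called higher and 8 lower (median 1.75). Hand1, a basic helix-loop-helix factor of trophoblast and mesoderm, had 0.321, 0.307, 0.0846 and 0.147 CPM and then 61.9, 171, 73.5 and 121 CPM. The 4-cell libraries spread widely, B highest and A lowest, and none came near the 2-cell range (change 6.36, SE 0.23, limma adjusted p 1.73e-23). Later, Hand1 was at 93.5 CPM in 8-cell embryos, 55.7 in morulae and 8.71 in blastocysts. Klf5, a Krueppel-like factor, had 28.4, 20.5, 19.5 and 23.5 CPM and then 286, 488, 292 and 340.4 CPM. Klf2 rose from 4.65 to 142 CPM, Sox15 from 19.5 to 498 CPM, Nanog from 0.716 to 19.2 CPM and Tead4, the partner of Yap in trophectoderm, from 2.1 to 77.4 CPM. Nr5a2, a nuclear receptor active in the early embryo, rose from 23.3 to 251 CPM. Dppa5a, an RNA-binding protein of pluripotent cells, rose from 121 to 5067 CPM. Gata3 fell from 37.9 to 2.71 CPM, as did Sox2 (from 3.39 to 0.293 CPM), a call lost at a pseudocount of 5 (-0.654), whereas Pou5f1 (26.3 and 16.1 CPM) and Cdx2 (0.251 and 0.13 CPM) were not called. Of 22 Hippo pathway genes 12 rose and 3, Stk3 (from 69.3 to 2.52 CPM), Wwc2 (from 198 to 42.2 CPM) and Yap1 (from 149 to 50.6 CPM), fell. Amotl2, an angiomotin, had 0 reads in the 2-cell libraries and 36.2 ± 14.8 CPM (SD, n = 4) in 4-cell embryos, at least 161-fold higher. Of 29 signalling genes, 4 were higher (13.8%) and 11 lower (37.9%), against 31.8% and 32.9% of all genes tested. The receptor gene Egfr fell from 272 to 0.479 CPM and Il6st, which encodes the gp130 co-receptor, from 37.7 to 1.03 CPM, while the ligand gene Fgf4 rose from 2.93 to 19.4 CPM and Igf2r from 6.72 to 134 CPM.

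Chromatin and transcription genes changed in both directions. Of 51 genes of RNA polymerase II and its general factors, 29 were called higher and 13 lower. Taf9b fell from 679.7 to 0.484 CPM and Tbpl2, the oocyte form of the TATA-binding protein, from 70.7 to 0.0759 CPM. Tbp itself fell from 281 to 112 CPM, and Taf9 rose from 41.9 to 223 CPM. Of 54 histone-modifying enzymes, 26 were higher and 9 lower: the arginine methyltransferase gene Prmt1 rose from 2.6 to 118 CPM, Ehmt2, a histone H3 lysine 9 methyltransferase, from 1.64 to 57 CPM and Kdm5b from 60.5 to 525 CPM, while Ezh2 of Polycomb repressive complex 2 fell from 582 to 176 CPM and Suz12, of the same complex, from 581 to 273 CPM. Suz12 lost its call without 4-cell library A or 2-cell library H (-0.948 without H). H1f8, the oocyte linker histone, fell from 286 to 4.97 CPM. Of 17 DNA methylation genes 4 (23.5%) rose and 4 (23.5%) fell, against 31.8% and 32.9% of all genes tested. Trim28, a corepressor recruited by zinc finger proteins, rose from 29.1 to 419.9 CPM and Tet1 from 13.3 to 102 CPM. Tet3, the oocyte's methylcytosine dioxygenase, fell from 117 to 10.9 CPM, Uhrf1 from 57.8 to 5.84 CPM and the imprint guardian Zfp57 from 385 to 20.0 CPM. Smarca4, the ATPase of the BAF complex, rose from 15.8 to 402 CPM. Xist, which coats the inactive X chromosome, rose from 0.312 to 23.5 CPM.

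Of 42 cell cycle genes, 11 (26.2%) were called higher and 13 (31%) lower, shares near those of all genes tested (31.8% and 32.9%). Wee2, the oocyte kinase that restrains Cdk1, fell from 1007 to 4.33 CPM, and Mad2l1, of the spindle checkpoint, from 2553 to 265 CPM. Mos, the kinase of the metaphase II arrest, fell from 8.01 to 2.17 CPM, with a change of -0.875 and no call at a pseudocount of 5. Cdc20 rose from 70.3 to 382 CPM, Cdc25a from 9.92 to 101 CPM and Cdk4 from 9.65 to 78.5 CPM. Of 47 DNA replication genes 23 were higher and 4 lower. Gins3 rose from 5.26 to 211 CPM and Cdc6, which loads the replicative helicase, from 27.3 to 224 CPM, whereas Orc5, of the origin recognition complex, fell from 785 to 48 CPM. Of 23 small RNA genes 10 (43.5%) rose and 9 (39.1%) fell. The piRNA pathway gene Tdrd1 went from 74.4 to 1.56 CPM and the exportin gene Xpo5 from 11.9 to 106 CPM. Among apoptosis genes, Bcl2l10 fell from 3203 to 6.61 CPM and Bik from 28.8 to 0.137 CPM, while Bax rose from 3.64 to 78.9 CPM, Mcl1 from 28.5 to 279 CPM and the p53 target Cdkn1a from 20.7 to 101 CPM. In the list of adhesion and polarity genes 9 (25.7%) rose and 12 (34.3%) fell of 35, near the shares of all genes. Prkci, of the apical polarity complex, fell from 117 to 10.9 CPM and the claudin gene Cldn7 rose from 2.28 to 45.2 CPM.

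**Figure D3:**
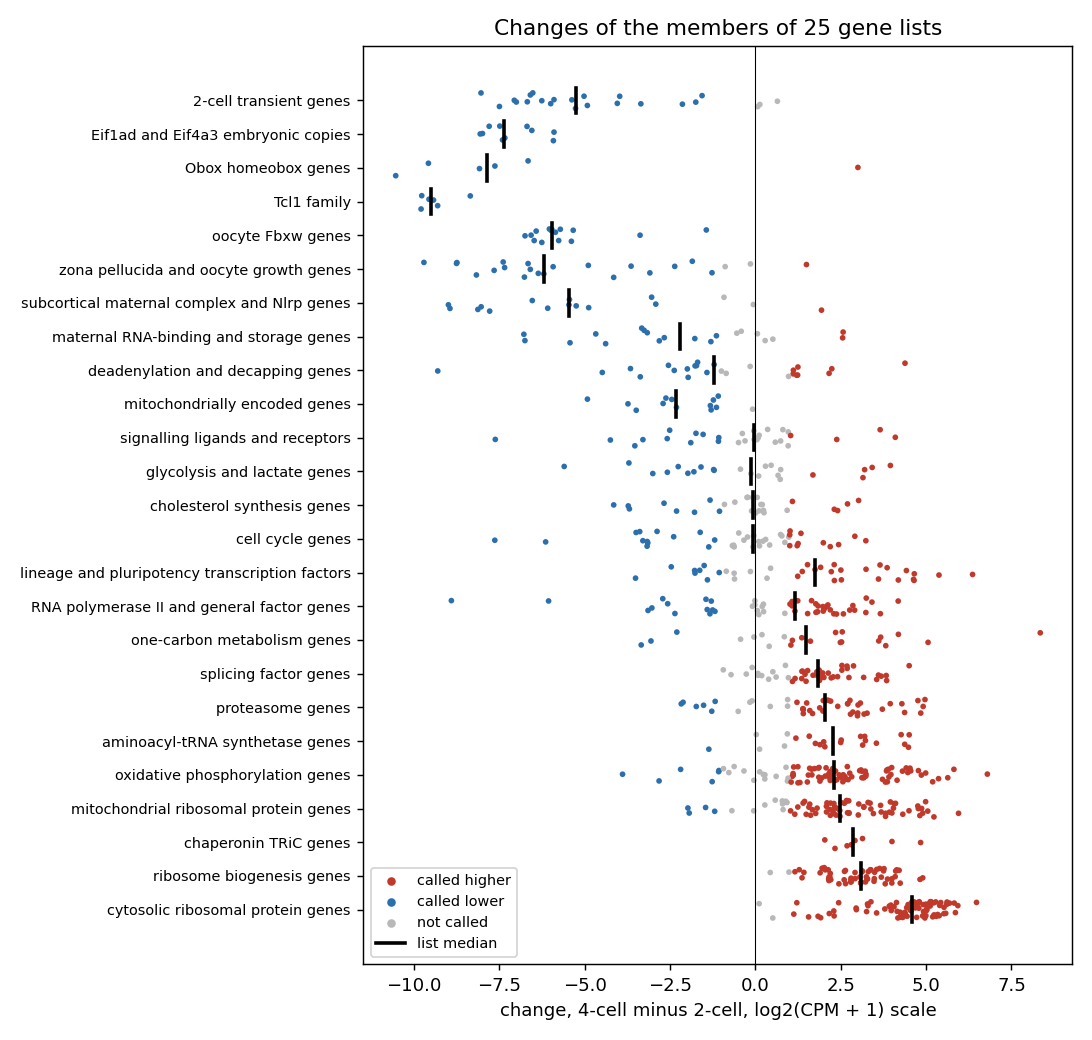
Change of each tested member (points) of the gene lists, 4-cell minus 2-cell on the log2(CPM + 1) scale; red was called higher, blue lower, grey not called, and black bars are list medians. The Tcl1 family has the lowest median, -9.49, and the cytosolic ribosomal protein genes the highest, 4.59.

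Related genes that differ in their use by oocyte and soma were compared in 19 pairs. In 14 of them the form known from oocytes or early embryos was called lower, as were 32.9% of all genes tested, and in 11 the counterpart was called higher, as were 31.8%. Both held in 7 pairs. The pairs are a chosen set, as the gene lists are. Their counts describe these pairs and are not a test against all genes. Pabpc1l, the embryonic poly(A)-binding protein, fell from 34.3 to 0.619 CPM as Pabpc1 rose from 45.6 to 614 CPM. Npm2, a histone chaperone of the egg, fell from 395 to 31.3 CPM and Npm1 rose from 851 to 3874 CPM. The Y-box protein gene Ybx2 fell from 37.1 to 3.22 CPM and Ybx1 rose from 342 to 1216 CPM, and the cohesin gene Smc1b fell from 83.7 to 7.67 CPM and Smc1a rose from 49.6 to 189 CPM. Elavl2 and Elavl1, Wee2 and Wee1, and Eif4a3l2 and Eif4a3 behaved alike, with Wee1 going from 20.7 to 50.5 CPM. Both members fell for Bcl2l10 and Bcl2l1, for Ldhb and Ldha and for Uchl1 and Uchl3. Eif4e, the partner of Eif4e1b, was abundant at both stages (1602 and 2912 CPM) and was not called. Its change of 0.864 fell short of 1, and it was called with quantile normalization (1.06). Ccnb3 (18.9 and 17.7 CPM) and Ccnb1 (5015 and 3584 CPM), which encode B-type cyclins, were not called either.

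**Figure D4:**
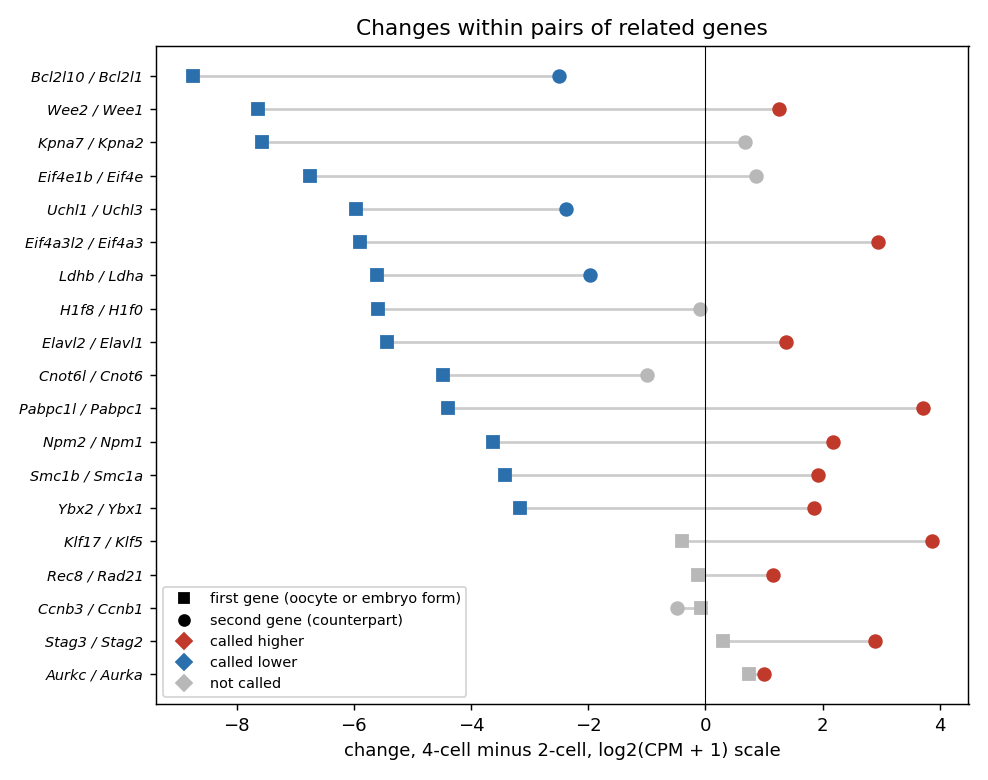
Change of both members of each pair, 4-cell minus 2-cell on the log2(CPM + 1) scale; squares are the oocyte or embryo form named first, circles the counterpart, and colours the calls. Lines that cross from blue squares to red circles mark the pairs in which the first fell and the second rose.

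Some abundant transcripts were at a like level in the transcriptomes of both stages. Dppa3, a maternal factor that guards the oocyte genome's methylation, had 7113, 7046, 5609.6 and 6622 CPM in 2-cell and 6709, 5135, 9609 and 8273 CPM in 4-cell libraries, with overlap between the stages (change 0.14, SE 0.18, limma adjusted p 0.484). In the sucrose gradients described further on, it had means of 844, 923 and 1233 CPM at the 2-cell and 2051, 1456 and 3289 CPM at the 4-cell stage, above without overlap. In reads it ranked after Map1lc3b and Rpl41 among 4-cell genes. Among genes with at least 100 CPM at both stages, the smallest change was that of Pdcd10 (138 and 133 CPM), followed by Kcmf1 (407 and 409 CPM), the RNA helicase gene Ddx3x (579 and 584 CPM) and Sumo3 (152 and 151 CPM). Others among the 10 smallest were Wtap, of the N6-methyladenosine writer (747 and 758 CPM), Paip2b (127 and 123 CPM), the cytokine gene Tnfsf13b (119 and 118 CPM), Atp6v1c1, of the vacuolar proton pump (135 and 133 CPM), and the splicing gene Cdc40 (126 and 126 CPM). Of these 9 genes, Sumo3 and Tnfsf13b lay above without overlap in the 4-cell gradients and Paip2b below. Equal levels do not show that the same molecules persisted. By reads, the 4-cell embryo was led by Map1lc3b, an autophagosome protein gene, which rose from 548 to 10301 CPM, followed by Rpl41, Dppa3, 18S ribosomal RNA (Rn18s, from 469 to 7414 CPM), CYTB, Eif5, Dppa5a, Rplp0, Hsp90ab1 and ND1, which fell from 8917 to 4090.1 CPM. The call of ND1 was lost with quantile normalization (-0.087, limma adjusted p 0.719) and without 4-cell library B (-0.892), 2-cell library F (-0.955) or 2-cell library H (-0.96). The 2-cell list was Obox5, Oog3, Zbed3, CYTB, Tcl1, Omt2b, Btg4, Mphosph6 (from 11070 to 175 CPM), Spin1 (from 9716 to 74.4 CPM) and ND1. CYTB and ND1 were thus the only genes on both lists.

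The remaining extremes were single genes. By size, the largest rises among named genes with at least 50 CPM after Bhmt and Ndufb7 were Olfr1459, an olfactory receptor gene (from 0.131 to 114 CPM), Syngr1 (from 0.72 to 175 CPM), the pantetheinase gene Vnn1 (from 0.493 to 130.3 CPM) and Tsr2, a ribosomal protein chaperone (from 4.45 to 476 CPM). Sycn had 0 reads in each 2-cell library and 56.2, 66.3, 83.9 and 35.1 CPM in 4-cell embryos, at least 269-fold higher. Cndp2 rose from 1.58 to 176 CPM, the mitochondrial creatine kinase gene Ckmt1 from 1.58 to 164 CPM and Ndufc1 from 2.6 to 224 CPM. Among the largest falls, Rfpl4 went from 6838 to 8.06 CPM and Oog3, an oogenesin, from 14934 to 22.2 CPM. Unnamed identifiers had extremes of the same size: Gm1965 fell from 3927 to 2.74 CPM, Gm21940 from 1345 to 1.19 CPM, Gm17751 from 951 to 0.773 CPM, A730082K24Rik from 672 to 0.116 CPM and E330034G19Rik from 3437 to 5.21 CPM, and Gm5096 rose from 0.177 to 127 CPM, Gm10163 from 0.577 to 138 CPM, Gm15459 from 27.3 to 1656 CPM, C130074G19Rik from 1.19 to 124 CPM and Gm5745 from 5.08 to 359.7 CPM. Whether counting used the strand is not given in the sources used here, so reads from a gene and from an overlapping neighbour cannot be told apart.

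The other stages placed these changes in the course of development. Of the 4823 genes that fell, 3137 had at least 10 CPM in GV oocytes. These summed to 611718 CPM in GV oocytes, 637134 in 2-cell, 72264 in 4-cell and 59298 in 8-cell embryos. Another 261 of the genes that fell had means under 1 CPM in GV oocytes, MII oocytes and zygotes, and first reached that level at the 2-cell stage. They summed to 13160 CPM in 2-cell and 825 CPM in 4-cell embryos, and 89 of them (34.1%) carried identifiers without a gene name, against 9.72% of all tested genes. Of the 4662 genes that rose, 1951 had at least 10 CPM in GV oocytes, with sums of 163500 CPM there, 113001 in MII oocytes, 93733 in 2-cell, 561444 in 4-cell and 594029 in 8-cell embryos. A further 1221 were under 1 CPM in GV and MII oocytes and zygotes and summed to 4336 CPM in 2-cell and 42822 CPM in 4-cell embryos. Ribosomal protein transcripts belong to the first kind: their sum was 8652 CPM in GV oocytes, 1682 in MII oocytes and 121716 in 8-cell embryos. The Eif1ad and Eif4a3 copies were highest at the 2-cell stage, at 0.418 CPM in zygotes, 5141 in 2-cell, 25.4 in 4-cell embryos and 80.1 in morulae. The sets in this paragraph were formed from levels that share the 2-cell and 4-cell libraries, so the sums are a description.

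**Figure D5:**
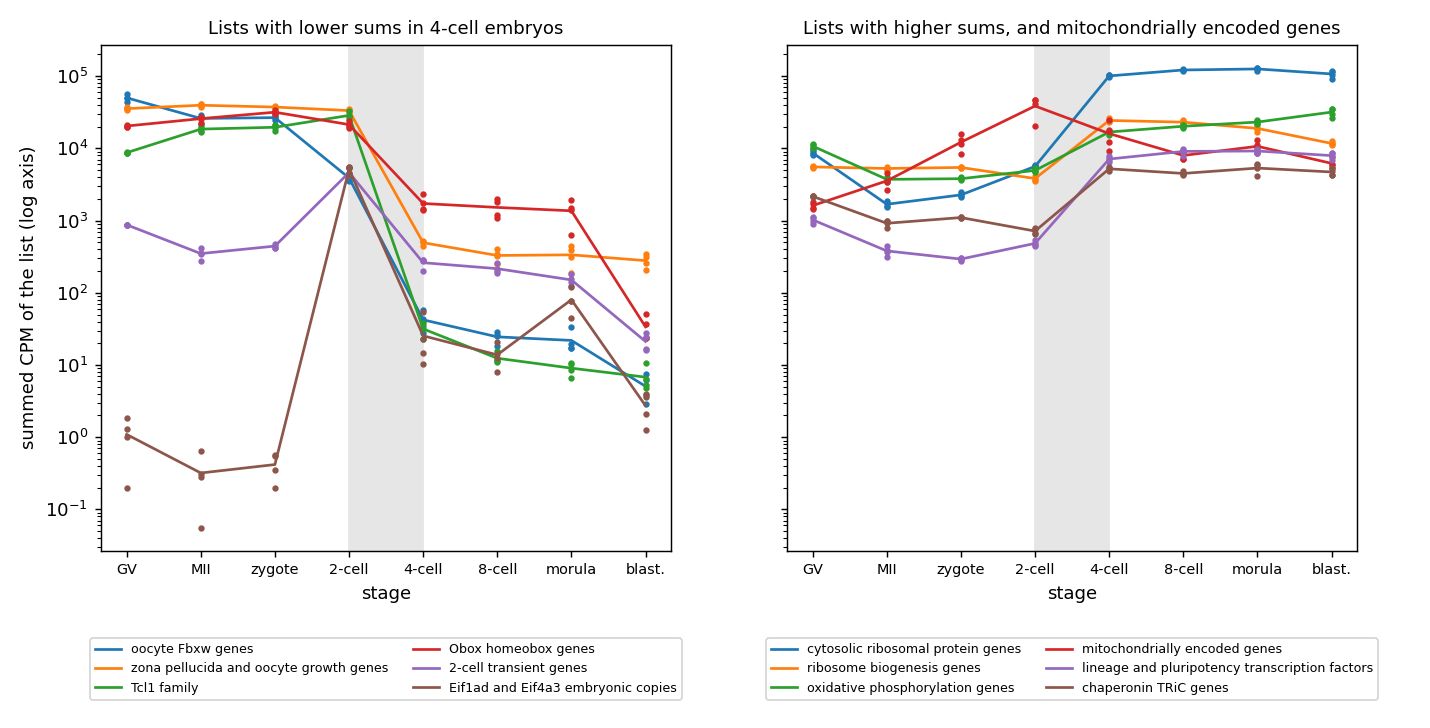
Summed CPM of the tested members of each list on a log axis at the 8 stages in order of development; points are single libraries, lines join means of 4 libraries, and grey marks the interval from 2-cell to 4-cell. Lists on the left drop within the grey band, those on the right climb there except the mitochondrially encoded genes, which peak at the 2-cell stage.

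The sucrose gradients gave other libraries of the same stages, made from fractions of a lysate rather than from whole RNA. For each of the 3 gradients of a stage the CPM of the 10 fractions were averaged, giving each fraction the same weight, and these means were not tested. Over all tested genes, the 3 gradient means of the 4-cell stage lay above all 3 of the 2-cell stage for 2929 genes (20.0%) and below for 3461 (23.6%). Of the genes called higher in the transcriptomes, 2236 (48.0%) lay above without overlap and 88 (1.89%) below, and they made up 76.3% of the genes above. Of those called lower, 2542 (52.7%) lay below and 68 (1.41%) above, and they made up 73.4% of the genes below. Among called genes whose gradients did not overlap, most thus lay on the same side as in the transcriptomes. Of the ribosomal protein genes 83 of 89 lay above, and all 6 Tcl1 genes and all 10 Eif1ad and Eif4a3 copies below. Other lists were less alike. Of 22 aminoacyl-tRNA synthetase genes, of which 17 were called higher in the transcriptomes, 3 lay above and 4 below. Of 26 heat shock protein genes, 14 of them called higher, 4 lay above and 5 below. Of 54 histone-modifying enzyme genes, 26 of them called higher, 5 lay above and 10 below. Rpl38 had 4.22, 7.72 and 5.34 CPM in the 2-cell gradients and 1098, 552 and 494 CPM in those of the 4-cell stage. Obox5 had 1982, 1519 and 3274 CPM and then 48.6, 47.9 and 21.6 CPM. Of the 13 mitochondrially encoded genes, lower in the transcriptomes, 7 lay above and 3 below. CYTB had 1882, 930.2 and 3187 CPM and then 5587, 7273 and 6347 CPM. In fractions 6 to 10 alone, 2 of the 13 lay above and 2 below.

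Promoter letters were described for lists in which at least 80% of tested members had a RefSeq promoter. Tested genes as a whole, the genes called higher, those called lower and the cytosolic ribosomal protein genes fell short of that share, so the motif check is void for them. The ETS motif CCGGAAG was found on either strand in 9.12% of all 27025 promoters of 300 bases. It was in 43.6% of 39 splicing factor promoters, 42.9% of 7 chaperonin TRiC, 38.5% of 39 replication, 36.4% of 44 RNA polymerase II and general factor, and 34.3% of 67 mitochondrial ribosomal protein promoters. It was in 0 of the 15 subcortical complex and Nlrp promoters, 0 of 12 Fbxw, 0 of 6 Tcl1, 0 of 5 Obox and 0 of 16 maternal RNA-binding promoters. At 9.12% over all promoters, 0 in lists as short as these says little. The motif did not sort lists by direction. It was in 28.6% of 21 deadenylation and decapping, 29.4% of 17 tricarboxylic acid cycle and 15.8% of 19 one-carbon promoters. The YY1 motif AAGATGGCG was in 11.9% of mitochondrial ribosomal protein promoters and in 1.49% of all. CpG pairs had a median of 7 per promoter in the table, 21 in mitochondrial ribosomal protein, 24 in splicing factor, 4 in Tcl1, 1 in Fbxw and 30 in maternal RNA-binding promoters. The Hippo pathway promoters, with a median of 26.5, held the ETS motif in 5.56%. A match is a description of sequence and not of binding.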

How the data were processed

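Polyadenylated RNA of pools of 20 embryos, described as coming from the same batch, was amplified by Smart-seq v4 and sequenced, per the labels' protocols. The authors deposited gene values as CPM. Columns whose sum exceeds 1 M, because some symbols repeat the same values, are treated as signal on that same deposited scale. The submitters' processing notes name Trim Galore 0.6.7, HISAT2 2.2.1, featureCounts 2.0.1, edgeR and GRCm39, with roles and order not given in the sources used here. Of 15854 rows, 76 sets covering 159 rows held identical values, and 1 of each was kept. All CPM values of the 8 libraries were whole reads within a tolerance of 0.05.

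Here limma 3.58.1 in R 4.3.3 was fitted with a mean-variance trend to log2(CPM + 1) of the 32 unfractionated libraries, for genes with at least 1 CPM in at least 4 libraries, and a gene was called at a Benjamini-Hochberg adjusted p under 0.05 and a change of at least 1. Sharing 1 fit over all stages pools the spread. Alternatives were edgeR 4.0.16 and DESeq2 1.42.0 on the recovered reads, other pseudocounts, filters and scalings, and leaving out each library. A fold against 0 reads used a floor of 3 reads per library. In data simulated for this comparison (14687 genes), 11 of 50 genes changed 2-fold, 32 of 50 changed 3-fold, 44 of 50 changed 4-fold and 48 of 50 changed 8-fold were called, and 0.255% of unchanged genes. The simulation left 14487 genes unchanged and drew noise for each gene independently. In the real comparison 64.8% of genes were called and whole libraries differed, so the simulated rates need not hold there. An exact permutation test of 4 against 4 cannot go below 0.0286. No column lacked a sample or group.

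Genes named are members of the gene lists and pairs, the 15 named and 5 unnamed genes with the largest rises and falls among called genes that did not overlap and reached 50 CPM, the 10 smallest changes at 100 CPM or more, and the 10 genes with the most reads per stage. Odf2 and Inha are members of the marker lists. Some genes that the rule covers are not reported here. The lists and members were chosen with earlier results of these data known, and the naming pattern of mitochondrial genes was set after the table was seen. Gene lists were matched by symbol or synonym. Sequences are RefSeq promoters on GRCm38.p6, read for genes matched by symbol.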

Additional observations from a re-analysis of the deposited data

Results flagged for a closer look

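In 45 of 588 groups of 4 libraries, each a gene or list named above at 1 stage, a single library lay far from the other 3 by Dixon's criterion, which chance meets in about 1 group in 20. Library E of the 2-cell stage accounted for 15 of them and library B of the 4-cell stage for 10, and no explanation was tested.

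In 2-cell library E, Bcl2l10 had 3987 CPM against 2906 to 2986 in the other libraries, Eif4e1b 377 against 157 to 176, Kpna7 507 against 356 to 373, Nobox 185 against 93.7 to 104.7, Ybx2 56.1 against 30.0 to 31.5 and Pou5f1 42.9 against 20.2 to 21.2. The summed level of the subcortical maternal complex and Nlrp genes was 30284 CPM in E against 20623 to 22260, of the proteasome genes 4516 against 3952 to 3981, of the apoptosis genes 5539 against 4249 to 4324 and of the sperm markers 124 against 109 to 110.3. Usp17lc was also high in E (63.5 CPM), as was Olfr1459 (0.449 CPM). Eif1ad7 was low there, with 1162 CPM against 1791 to 1896, and so were Gm21940 with 766 against 1496 to 1566 and Wtap with 702 against 759 to 765.

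In 4-cell library B, Bcl2l10 had 9.81 CPM against 5.16 to 5.84, H1f8 8.16 against 3.70 to 4.02, Smc1b 15.4 against 4.46 to 5.95 and Ybx2 5.14 against 2.33 to 2.79. Sox2 had 0.96 CPM in B and at most 0.107 elsewhere, and Bik 0.549 where the other 3 libraries had 0 reads. 18S ribosomal RNA (Rn18s) had 13106 CPM in B against 5339 to 5722, H1f5 44.6 against 16.5 to 17.7 and C130074G19Rik 167 against 103 to 113, while Dppa4 was low with 681 against 876 to 913.

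The remaining library values far from their group were spread over the others. At the 2-cell stage, Zscan4c had 409.7 CPM in G, Nlrp5 64.6 in G, Psmf1 256 in G, Syngr1 0.254 in G, Kdm5b 45.6 in F, Mat2b 2415 in F, Sgce 1.15 in F and Edc3 0.736 in H. At the 4-cell stage, Cdc20 had 483 CPM in A, Dppa2 1508 in A, Tdrd1 2.94 in A, Oosp3 1.08 in A, Atp6v1c1 127 in A, Cdk4 57.6 in C, Cnot8 313 in C, Cndp2 136 in D, Obox2 7.39 in D, Tcl1b3 1.72 in D and Tbpl2 0.304 in D. The summed 2-cell transient genes had 199.9 CPM in 4-cell library C against 276 to 285.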

How the results depend on the processing

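Every other setting that was run kept the counts of genes called higher, lower or either way within 1.5 times the reported ones. Leaving out 1 library at a time gave 9444 to 9523 genes in all, 4599 to 4749 higher and 4755 to 4883 lower. The fewest calls came at a pseudocount of 5 (6925) and the most without a minimum change (11912) and at a pseudocount of 0.1 (10574), and 6743 of the 9485 calls (71.1%) were kept under every alternative that tested the gene. Other scalings moved the median change of all genes from 0.017 to 0.216 with quantile normalization, -0.127 with size factors and -0.18 with DESeq2, and changes are to be read against that shift. Of 218 named genes called, 209 kept their call under each alternative, and COX1, CYTB, Cnot8, Mos, ND1, Rpl24, Rps10, Sox2 and Suz12 did not. No named gene changed direction while called. List medians changed sign for the stress response genes, from -0.35 to 0.25 with a filter of 10 CPM and to 0.00433 with quantile normalization, and for the DNA methylation genes, from 0.14 to -0.105 with size factors and -0.0709 with DESeq2. Medians near 0 also changed sign. With quantile normalization these were glycolysis (-0.13 to 0.2), cholesterol synthesis (-0.078 to 0.167), signalling (-0.046 to 0.177), small RNA (-0.0094 to 0.276), adhesion (0.13 to -0.15) and cell cycle genes. With size factors they were tricarboxylic acid cycle (0.16 to -0.0786), adhesion (-0.112) and actin, tubulin and keratin genes. The size of medians of lists whose genes end near 0 reads depends on the pseudocount and tool: the 2-cell transient genes had -3.87 at a pseudocount of 5 and -6.96 with DESeq2, and the zona pellucida and oocyte growth genes -4.46 and -7.5. The cause was not tested. Using fractions 6 to 10 of the gradients alone, 2298 genes lay above and 2619 below without overlap. No paired analysis was possible because the 2-cell columns are lettered E to H and the 4-cell columns A to D, so the stages share no replicate letter in the table. A single read was worth up to 0.0846 CPM in these libraries, so levels of a few such steps are not distinguishable from 0 at this depth.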

Other observations

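Of 54 histone genes tested, 16 (29.6%) were called higher and 9 (16.7%) lower, against 31.8% and 32.9% of all genes tested. Their median change was 0.41, and it moved to 2.14 with a filter of 10 CPM, which left 21 genes with 14 called higher and 2 lower, and to 0.863 in edgeR with TMM. The replication-independent variants H2az1 and H2az2 rose from 493 to 2160.2 CPM and from 129.7 to 438 CPM, and H2ax, which marks DNA breaks when phosphorylated, rose from 11.5 to 142 CPM. The linker histone genes H1f4 and H1f5 rose from 1.01 to 24.7 CPM and from 0.775 to 24.1 CPM, while the oocyte linker histone gene H1f8 fell. Replication-dependent histone transcripts mostly lack a poly(A) tail, and polyadenylated RNA was sequenced. Among them, H4c4 (from 5.12 to 136 CPM) rose where H4c3 (from 10.6 to 1.29 CPM) fell. H3f3b (2244 and 3266 CPM) and H3f3a (1210 and 2164 CPM), which encode histone H3.3, were not called.

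Of 29 transcription factors linked to genome activation, 16 were called higher and 6 lower, on a list that shares members with the lineage and 2-cell lists. The pluripotency-associated genes Dppa2 and Dppa4 rose from 210.3 to 1311 CPM and from 95.4 to 838 CPM, and Myc rose from 2.85 to 43.9 CPM. Of the 3 subunits of the CCAAT-binding factor NF-Y, Nfya fell from 192 to 21.6 CPM, Nfyb rose from 29.6 to 313 CPM and Nfyc (87.7 and 129 CPM) was not called. Gabpa, an ETS factor, was at a like level in both stages (274 and 259 CPM). Of 20 tricarboxylic acid cycle genes 9 rose and 4 fell, and the 3 subunits of isocitrate dehydrogenase 3 differed, with Idh3a going from 96.4 to 22.5 CPM, Idh3b from 5.66 to 107 CPM and Idh3g from 40.1 to 325 CPM. Of 26 stress response genes 7 (26.9%) rose and 9 (34.6%) fell, against 31.8% and 32.9% of all genes tested. Asns, asparagine synthetase, rose from 0.407 to 25.1 CPM and its activator Atf4 from 51.3 to 131 CPM, whereas Ddit3 fell from 65.9 to 19.4 CPM and Atf3, at 0 reads in the 4-cell libraries, at least 38.8-fold. Of 27 actin, tubulin and keratin genes 10 rose and 7 fell: the actin-binding gene Pfn1 rose from 65.9 to 643 CPM, Actb from 212 to 703 CPM and the trophectoderm keratin gene Krt8 from 1.65 to 12.1 CPM, while the tubulin gene Tubb2a fell from 127 to 4.2 CPM. Of 18 X inactivation and imprinted genes 9 rose and 4 fell, among them Sgce (from 0.438 to 22.9 CPM) and Snrpn (from 54.5 to 155 CPM) upwards and Mest (from 74.5 to 4.61 CPM) downwards.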
